A study of Cucumis melo with 4 samples.

Results

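The comparison set the hermaphrodite library of melon (Cucumis melo L.), from plants with bisexual flowers only, against the monoecious library, from plants with separate male and female flowers. All 76260 unigenes (contigs assembled from the reads) with an RPKM value in both libraries were taken, from 2 of the 4 libraries of the series. RPKM is the read count of a unigene divided by its length and by the reads of the library. The other 2 libraries, gynoecious (female flowers only) and andromonoecious (male and bisexual flowers), were not part of the comparison. They served to show on which side of a difference they lay, to sort unigenes by pattern, and in scaling and read recovery. Each library was 1 bulk, in which equal amounts of RNA from separately extracted recombinant inbred lines were mixed. The number of lines in a bulk is not given in the sources used here. The tissue was pooled over 4 stages, namely seedling leaves when 2 true leaves were out, young leaves with axillary buds 1 week after transplanting, the smallest flower buds (under 2 mm), and buds close to opening. A level therefore mixes leaf and flower, and fewer cells of a type cannot be told apart from less RNA per cell.

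The sample labels give the genotype AAGG for the monoecious lines, aaGG for the hermaphrodite lines, AAgg for the gynoecious lines and aagg for the andromonoecious lines. The headers of the deposited locus tables give aagg for the hermaphrodite and aaGG for the andromonoecious lines instead. In both versions the monoecious and gynoecious lines share AA, and the hermaphrodite and andromonoecious lines share aa. Whether the hermaphrodite and monoecious lines also differ at g depends on the version. The hermaphrodite library was run on another flow cell than the other 3, so flow cell and sex type cannot be told apart. With 1 library a side there was no replicate and no test. Ratios are given with exact binomial 95% intervals, which cover counting error only.

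In melon the a locus is known to encode an ACC synthase, CmACS-7, an enzyme of ethylene synthesis whose activity in the carpel arrests stamens, so that plants lacking it bear bisexual flowers where others bear female ones. The g locus is known to encode CmWIP1, a zinc finger protein that arrests the carpel, so that plants lacking it bear no male flowers. The sample-label genotype of the andromonoecious lines, aagg, goes against this, since these plants bear male flowers, while the genotypes of the locus tables go with it. A hermaphrodite bud thus keeps both organs, while a monoecious plant makes stamens and carpels in different flowers.

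In the hermaphrodite library 26650761 reads lay on unigenes, 98.6% of its total, and in the monoecious library 26044009 reads, 98.7% of its total. Reads were detected on 69770 and 66492 unigenes, respectively. A minimum of 50 reads in the pair left 35231 unigenes for counting. Of the 11737 product names in the per-library files, 11140 repeat a deposited BLAST table in which names stand beside the wrong unigenes. Of 377 unigenes named both in that table and in the authors' gene tables, 1 had the same coding sequence (CDS) in both. For 23 unigenes named in the per-library files but not in that table, all 23 had the same CDS as in the gene tables, and those names were used here only to sum unigenes of 1 CDS. Unless stated, names below are therefore those of the gene tables, which named 1659 unigenes with a described product and no known poor match, 827 of them with 50 reads or more. A name is that of the closest melon CDS. The authors listed these unigenes for differences in other pairs of the 4 libraries. Each pair set the hermaphrodite or monoecious library against the gynoecious or andromonoecious library. The named unigenes therefore hold more large ratios than unigenes at large. Which of the 4 libraries was lowest or highest for a named gene below was also in part fixed by that choice.

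Most unigenes differed little between the 2 libraries. The median log2 ratio, hermaphrodite over monoecious after TMM scaling, was 0.02 over the 35231 unigenes, with quartiles at -0.50 and 0.55. At least 4-fold higher in the hermaphrodite library were 737 unigenes (2.09%), and 874 (2.48%) were at least 4-fold lower. At 2-fold, 4162 (11.8%) were higher and 4057 (11.5%) lower. Among the 827 named unigenes, 66 (7.98%) passed 4-fold upwards and 52 (6.29%) downwards, and 216 (26.1%) and 158 (19.1%) passed 2-fold. The direction of the excess rested on the scaling, since on the deposited RPKM the median moved up by 0.13 and 55.7% of the 4-fold unigenes, rather than 45.7%, were the higher ones.

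Large ratios were more frequent at low depth. Of the 13656 unigenes with 50 to 199 reads in the pair, 8.48% passed 4-fold in either direction, against 2.72% of the 12151 with 200 to 999 reads, 1.34% of the 7666 with 1000 to 4999 and 1.14% of the 1758 with 5000 or more. The most abundant unigenes were mostly higher in the monoecious library. Of the 50 with most reads in the pair, 40 were lower in the hermaphrodite library, 11 of them at least 2-fold, and none was 2-fold higher. Their median log2 ratio was -0.58, and on the deposited RPKM 35 of the 50 were lower. The 10 most abundant unigenes of each library took 9.93% of its reads in the monoecious and 6.86% in the hermaphrodite library, beside 5.78% in the gynoecious and 8.05% in the andromonoecious library.

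**Figure D1:**
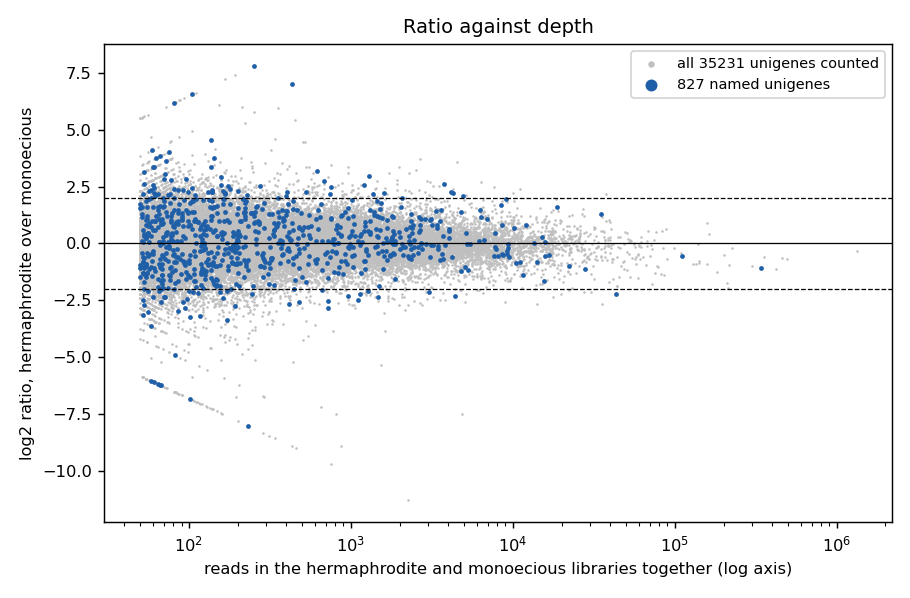
Log2 ratio (hermaphrodite over monoecious, TMM-scaled, prior count of 1) of each unigene against its reads in the 2 libraries together, on a log axis. Grey points are the 35231 unigenes counted, blue points the 827 named ones, and dashed lines mark 4-fold; the straight rows of points at the upper and lower edges are unigenes with no read in one library.

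Stamen genes were present at similar levels in both libraries. ABORTED MICROSPORES, known in Arabidopsis as a transcription factor of the tapetum, the anther layer that feeds pollen, had 1759 reads (35.6 RPKM) in the monoecious and 2305 reads (45.5 RPKM) in the hermaphrodite library. It had 90 reads in the gynoecious and 7396 in the andromonoecious library. The hermaphrodite level was 1.17 times the monoecious level (1.10 to 1.25). MALE STERILITY 1, a PHD finger protein that in Arabidopsis acts later in the tapetum, had 133 monoecious, 197 hermaphrodite, 0 gynoecious and 451 andromonoecious reads, a ratio of 1.32 (1.06 to 1.66). MALE MEIOCYTE DEATH 1, needed for male meiosis in Arabidopsis, had 122, 136, 8 and 452 reads in that order, a ratio of 0.996 (0.774 to 1.28). These 3 were all the named unigenes of the stamen and pollen list. Their summed level was 46.6 RPKM in the monoecious, 60.4 in the hermaphrodite, 2.01 in the gynoecious and 194 in the andromonoecious library. The 2 libraries compared thus lay close together between the other 2. A difference from the gynoecious or andromonoecious library is what gave a unigene its name here, so this position was in part selected.

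Other genes, most of them known from pollen or anthers, were also lowest in the gynoecious library. These were picked out after their values were seen. ABC transporter G family member 26, which in Arabidopsis exports pollen wall precursors, had 244 monoecious, 231 hermaphrodite, 0 gynoecious and 326 andromonoecious reads, a ratio of 0.846 (0.703 to 1.02) whose interval includes 1. The sugar exporter SWEET15, whose name does not mark it as a pollen gene, had 1416, 1193, 28 and 2085 reads in that order, a ratio of 0.753 (0.696 to 0.813). Callose synthase 5, which makes the callose around developing pollen in Arabidopsis, differed more between the 2 libraries. Its unigene with no gynoecious read had 109 monoecious, 40 hermaphrodite and 54 andromonoecious reads, and was 3.05-fold lower in the hermaphrodite library (2.11 to 4.50). A second unigene of this name had 38 monoecious, 17 hermaphrodite, 77 gynoecious and 44 andromonoecious reads, and so was not low in the gynoecious library.

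**Figure D2:**
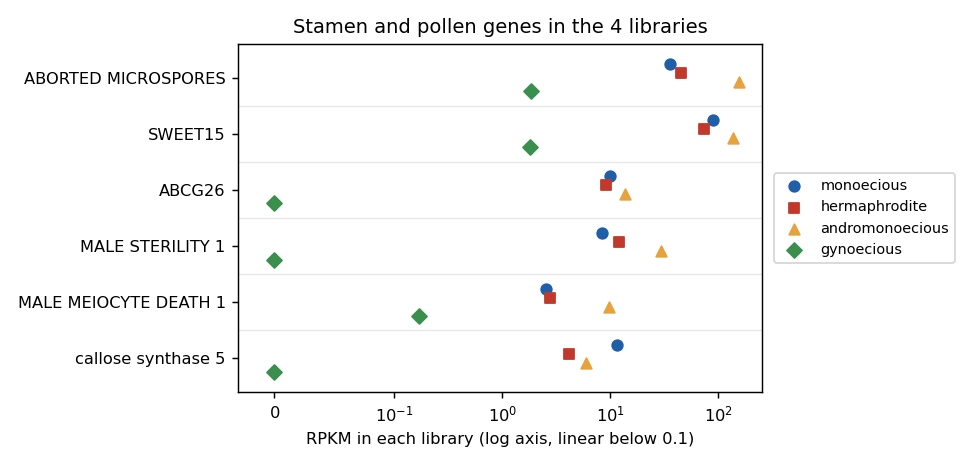
RPKM of 6 genes, most of them known from stamens or pollen, in each of the 4 libraries, 1 symbol per library. The log axis is linear below 0.1 so that 0 can be shown. ABCG26, SWEET15 and callose synthase 5 were picked out after their values were seen. For callose synthase 5 only the unigene with no gynoecious read is drawn. The monoecious and hermaphrodite symbols lie close together except for callose synthase 5, and the gynoecious symbols lie at or near 0, up to 1.84 RPKM.

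In all, 365 unigenes, 39 of them named, were at least 8-fold lower in the gynoecious library than in each of the other 3. Their median log2 ratio, hermaphrodite over monoecious, was -0.23, with quartiles at -0.94 and 0.59. Of the 365, 16 were 4-fold higher and 20 were 4-fold lower, both larger shares than the 2.09% and 2.48% of all unigenes counted. Of the 365, 61.4% lay within 2-fold, against 76.7% of all unigenes counted. The andromonoecious library was the highest for 213 of them. The rule asks for a level at least 8-fold above the gynoecious one in both libraries compared. This bars unigenes without reads in either, but sets no upper limit on their ratio. Glucan endo-1,3-beta-glucosidase 8, for instance, passed with 8 monoecious and 135 hermaphrodite reads.

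Leaf and cell division genes served to describe the makeup of the 2 bulks. The photosynthesis list held 8 named unigenes, and its summed level was 202 RPKM in the monoecious and 275 RPKM in the hermaphrodite library, beside 294 and 210 RPKM in the gynoecious and andromonoecious libraries. Of its 4 unigenes counted, none passed 2-fold, and the median log2 ratio was 0.32. Plastocyanin, an electron carrier of photosynthesis, had 160 monoecious and 253 hermaphrodite reads, a ratio of 1.41 (1.15 to 1.73). Outside the list, and picked out after their values were seen, other photosynthesis genes were lower in the hermaphrodite library. Cytochrome b6 was 4.96-fold lower, and 3 unigenes of chlorophyll a-b binding protein 4, named in the per-library files only, had 91 monoecious and 26 hermaphrodite reads in sum. Of the 8 on the list, 1 was at 0 in both the monoecious and the hermaphrodite library. The part of leaf tissue in the differences below was not tested.

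DNA replication genes were mostly higher in the hermaphrodite library. Of 11 unigenes counted of 24 named, 9 lay above 0 and 5 passed 2-fold upwards, while 2 passed it downwards, and the median log2 ratio was 0.76. This stands beside 26.1% upwards and 19.1% downwards of the 827 named unigenes, whose median was 0.12, and the same shares apply to each list below. The licensing factor MCM4, a subunit of the replicative helicase, had 502 monoecious, 1167 hermaphrodite, 2947 gynoecious and 839 andromonoecious reads, 2.08-fold higher in the hermaphrodite library (1.87 to 2.31). MCM6 of the same helicase had 133, 253, 419 and 211 reads, a ratio of 1.70 (1.37 to 2.11). For both, the monoecious library was the lowest of the 4 and the gynoecious library the highest. Msh6-1, a mismatch repair protein, had 20, 111, 87 and 38 reads, a ratio of 4.96 (3.06 to 8.43). DNA topoisomerase 1, which relaxes supercoiled DNA, had 4, 132, 146 and 33 reads, a ratio of 29.5 (11.2 to 110). On the other side, the unigene named Meiosis protein mei2, an RNA-binding protein family, had 113, 35, 36 and 24 reads, and replication factor C subunit 2 had 44 monoecious and 23 hermaphrodite reads.

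Other genes of dividing cells gave a mixed picture. Ribonucleotide reductase, which makes the building blocks of DNA, was higher in both subunits. Its small chain had 460 monoecious, 1580 hermaphrodite, 4172 gynoecious and 913 andromonoecious reads, a ratio of 3.07 (2.76 to 3.41), and its large subunit had a ratio of 2.61 (2.31 to 2.95). Of the 12 cell cycle unigenes counted, 4 were 2-fold higher and 2 lower, with a median of 0.58. These counts were not far from the 26.1% and 19.1% of all named unigenes. Cyclin-T1-5, whose type of cyclin is known for transcription rather than division, was the highest, with 3 monoecious, 72 hermaphrodite, 0 gynoecious and 18 andromonoecious reads. Cell division control protein 2 homolog A, a kinase that drives division, had 15, 55, 60 and 57 reads, a ratio of 3.28 (1.82 to 6.24). Histone H3.3, the only histone counted and not a marker of dividing cells, had 5402 monoecious and 4056 hermaphrodite reads, a ratio of 0.671 (0.644 to 0.699).

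Genes of fatty acids and surface lipids were mostly higher in the hermaphrodite library. Of 12 unigenes of the fatty acid, wax and cutin list counted of 26 named, 8 passed 2-fold upwards in the hermaphrodite library and 1 downwards, with a median log2 ratio of 1.37. The 1 unigene of the 12 with a readable good match lay at -0.84, and with the planned names, which are the misplaced ones and put other unigenes in the list, the median was -0.18. WAX2, needed in Arabidopsis for the waxy cuticle, had 156 monoecious, 1052 hermaphrodite, 622 gynoecious and 494 andromonoecious reads, or 12.8, 84.2, 51.6 and 41.9 RPKM. It was 6.02-fold higher in the hermaphrodite than in the monoecious library (5.09 to 7.17). The GDSL esterase/lipase APG had 657, 3499, 3084 and 2608 reads, a ratio of 4.76 (4.38 to 5.18). Fatty acid 2-hydroxylase, which modifies the acyl chains of sphingolipids, had 21, 118, 234 and 82 reads, a ratio of 5.02 (3.14 to 8.41). For all 3 the monoecious library was the lowest of the 4.

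The desaturases and the elongation enzymes of the list were higher to a lesser degree. The omega-3 fatty acid desaturase of the endoplasmic reticulum had 1227 monoecious, 3566 hermaphrodite, 5123 gynoecious and 3550 andromonoecious reads, a ratio of 2.60 (2.43 to 2.77). The unigene of 3-ketoacyl-CoA synthase 17, of a family that elongates fatty acids for waxes, had 129, 366, 825 and 319 reads. GDSL esterase/lipase 5 was the unigene lower in the hermaphrodite library, with 191, 58, 22 and 41 reads. Outside the list, the omega-hydroxypalmitate O-feruloyl transferase, which adds ferulate to suberin monomers, had 156, 16, 5 and 261 reads and so was also lower.

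Heat shock proteins and chaperones had a median of 1.28 over 12 unigenes counted of 21 named, with 7 past 2-fold upwards and 1 downwards. With the planned, misplaced names the median was -0.045. The 97 kDa heat shock protein had 55 monoecious, 567 hermaphrodite, 386 gynoecious and 232 andromonoecious reads, 9.21-fold higher (6.97 to 12.4). The mitochondrial 70 kDa protein, which draws proteins into mitochondria and folds them, had 104, 650, 603 and 378 reads, a ratio of 5.58 (4.53 to 6.93). In both the monoecious library stood below the other 3. The small heat shock protein of the chloroplast ranked otherwise, with 63, 179, 3 and 302 reads, so that the gynoecious library was the lowest. Chaperone protein dnaJ 20 was the unigene lower in the hermaphrodite library, with 1200, 264, 157 and 299 reads, 5.09-fold (4.45 to 5.84).

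**Figure D3:**
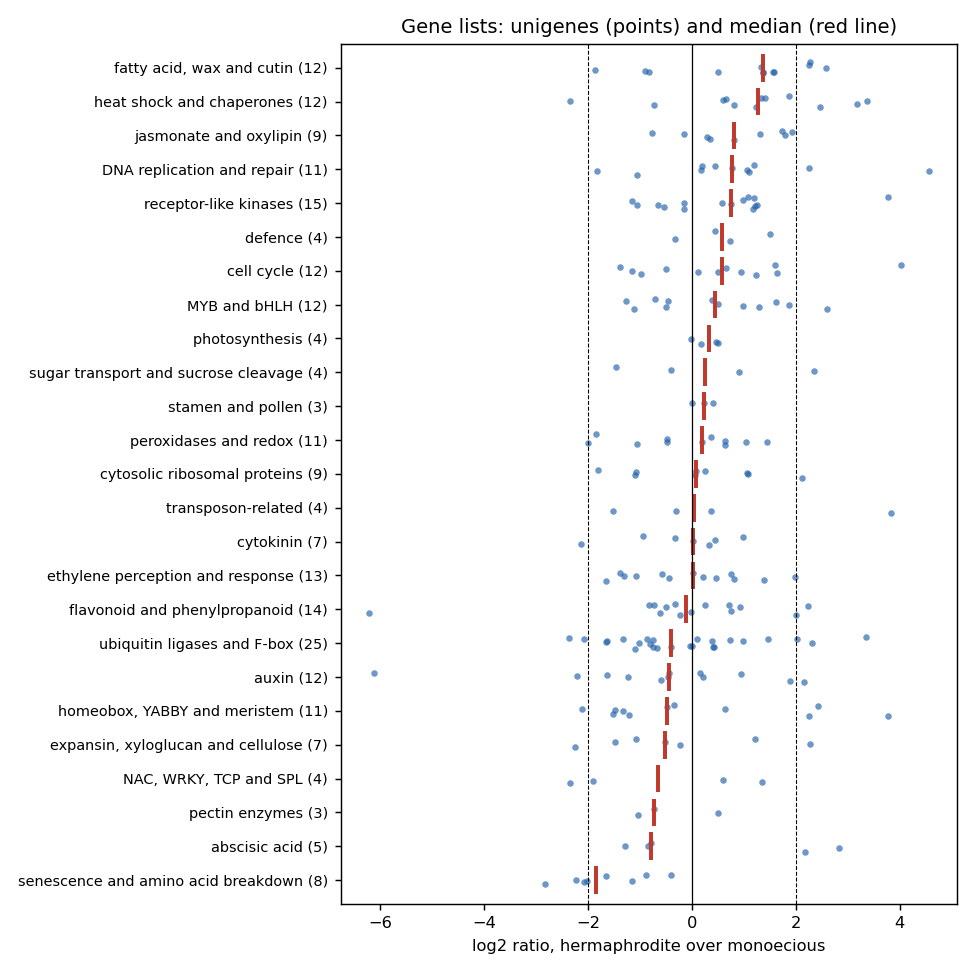
Log2 ratio, hermaphrodite over monoecious, of each counted unigene (blue point, jittered vertically) in the gene lists with 3 or more unigenes counted, the number in brackets. Red lines are medians and dashed lines mark 4-fold; the fatty acid, wax and cutin list has its median at 1.37, and the senescence and amino acid breakdown list was drawn up after its leading genes had been seen.

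Genes of senescence and amino acid breakdown were lower in the hermaphrodite library. This list was drawn up after the leading genes had been seen, so its direction was fixed by the choice. All 8 unigenes lay below 0, with a median of -1.84. The unigene of 4-hydroxyphenylpyruvate dioxygenase, which breaks down tyrosine and makes the precursor of tocopherol and plastoquinone, had 35070 monoecious (2100 RPKM), 8393 hermaphrodite (490 RPKM), 5094 gynoecious and 15678 andromonoecious reads. It was 4.68-fold lower in the hermaphrodite library (4.57 to 4.79). Alpha-aminoadipic semialdehyde synthase, which starts lysine breakdown, had 624, 97, 44 and 203 reads, 7.20-fold lower (5.81 to 9.02). Isocitrate lyase of the glyoxylate cycle had 11457, 4047, 710 and 3733 reads. The senescence-associated protein DIN1, known in Arabidopsis as induced in darkness, had 519, 142, 44 and 63 reads. In all 4 the monoecious library was the highest and the gynoecious library the lowest.

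For ethylene, the hormone made by the pathway of the a locus, few unigenes were named and their ratios went both ways. ACC oxidase, which makes ethylene from ACC, had 179 monoecious (5.18 RPKM), 101 hermaphrodite (2.85 RPKM), 18 gynoecious and 73 andromonoecious reads, and was 1.98-fold lower in the hermaphrodite library (1.55 to 2.56). The unigene named ACC synthase 7 had 0, 8, 13 and 4 reads, too few to count. No ethylene receptor was among the named unigenes. Of 13 unigenes of ethylene perception and response counted, 2 were at least 2-fold higher and 4 lower, with a median of 0.01, and of -0.22 with a minimum of 10 reads. ERF109, a transcription factor, was the highest, with 65, 292, 163 and 252 reads, a ratio of 4.01 (3.06 to 5.33), and ERF 1B the lowest, with 81, 28, 120 and 106 reads. CTR1, the kinase that holds ethylene signalling off, was the name of 3 unigenes counted, with ratios of 0.375, 0.732 and 1.38. Each had a different melon CDS, so they are not parts of 1 gene.

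Auxin genes were divided too. Of 12 counted, 2 were at least 2-fold higher and 4 lower, with a median of -0.45 that turned to 0.15 with a minimum of 10 reads. The shares among all named unigenes were 26.1% and 19.1%. YUCCA10, of a family that makes auxin, had 61 monoecious, 0 hermaphrodite, 0 gynoecious and 2 andromonoecious reads, and was at least 22.8-fold lower in the hermaphrodite library, taking 3 reads as the floor for a count of 0, with an exact interval that starts at 18. Auxin efflux carrier component 7, which moves auxin out of cells, had 919, 221, 225 and 378 reads, 4.66-fold lower (4.02 to 5.42). Auxin response factor 5, which in Arabidopsis is needed for flowers to form, had 63, 22, 13 and 20 reads, 3.21-fold lower (1.95 to 5.47). Auxin response factor 6, which in Arabidopsis promotes the late growth of flower organs, had 85, 354, 172 and 158 reads and was 3.72-fold higher (2.93 to 4.77).

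The other hormone lists were small. Of the 5 abscisic acid unigenes counted, 2 were at least 2-fold higher and 1 lower, with a median of -0.79 that turned to 0.57 with a minimum of 10 reads. The 2 receptors were the higher ones. PYL4 had 226 monoecious, 1149 hermaphrodite, 1400 gynoecious and 1267 andromonoecious reads, a ratio of 4.54 (3.93 to 5.26), and PYR1 had 10, 86, 32 and 158 reads, a ratio of 7.68 (3.98 to 16.6). Abscisic acid 8'-hydroxylase 3, which breaks the hormone down, had 570, 259, 47 and 635 reads. The transcription factors ABSCISIC ACID-INSENSITIVE 5-like protein 5 and 6 had ratios of 0.557 and 0.576. Both counted gibberellin unigenes were higher. Gibberellin 2-beta-dioxygenase 8, which inactivates the hormone, had 23, 152, 221 and 67 reads, a ratio of 5.90 (3.79 to 9.59), and gibberellin-regulated protein 4 had 1797, 6612, 9919 and 6261 reads.

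Jasmonate genes had 9 unigenes counted, 4 at least 2-fold higher and none 2-fold lower, with a median of 0.81. Allene oxide cyclase 4, of jasmonate synthesis, had 316 monoecious, 1218 hermaphrodite, 2039 gynoecious and 1696 andromonoecious reads, a ratio of 3.44 (3.04 to 3.91). Allene oxide synthase, the step before it, was named for 2 genes that went opposite ways. One had 4062, 7999, 16450 and 10126 reads, a ratio of 1.76 (1.69 to 1.83), and the other had 45, 29, 0 and 33 reads, 1.74-fold lower (1.07 to 2.87). TIFY 10B, TIFY 6B and TIFY 9, of the family of jasmonate signalling repressors, had ratios of 3.99, 3.39 and 2.51. Among cytokinin genes LOG3, which releases the active hormone, had 85, 21, 20 and 40 reads, 4.53-fold lower (2.78 to 7.69), and the other 6 counted lay within 2-fold.

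Of the meristem and patterning genes, 3 of 11 counted were at least 2-fold higher and 5 lower, beside 26.1% and 19.1% of the named unigenes, with a median of -0.48, which turned to 0.64 when unigenes with 10 reads or more were counted. The 2 knotted-like genes, homeobox factors of the meristem, went opposite ways. Knotted-1-like 1 had 80 monoecious, 20 hermaphrodite, 91 gynoecious and 18 andromonoecious reads, 4.48-fold lower (2.72 to 7.72), and the 2 libraries with the aa genotype were the low ones. Knotted-1-like 2 had 8, 53, 91 and 65 reads, 5.92-fold higher (2.80 to 14.4). CUP-SHAPED COTYLEDON 2, which sets organ boundaries, had 15, 84, 95 and 33 reads, a ratio of 5.0 (2.87 to 9.33), and the receptor-like CLAVATA2, which limits meristem size, had 3, 60, 33 and 27 reads, a ratio of 17.9 (5.83 to 89.1). The leucine zipper homeobox genes HAT22 and HAT5 were 2.90-fold and 2.31-fold lower. Of the floral MADS list only SVP was counted, with 36, 16, 8 and 21 reads, 2.52-fold lower (1.36 to 4.86).

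The unigene named tasselseed-2 was picked out after its value was seen. In maize this dehydrogenase is needed for pistils to abort in male flowers. It had 4 monoecious, 49 hermaphrodite, 45 gynoecious and 49 andromonoecious reads, a ratio of 10.9 (4.01 to 41.7), so that the monoecious library was the one that stood apart.

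**Figure D4:**
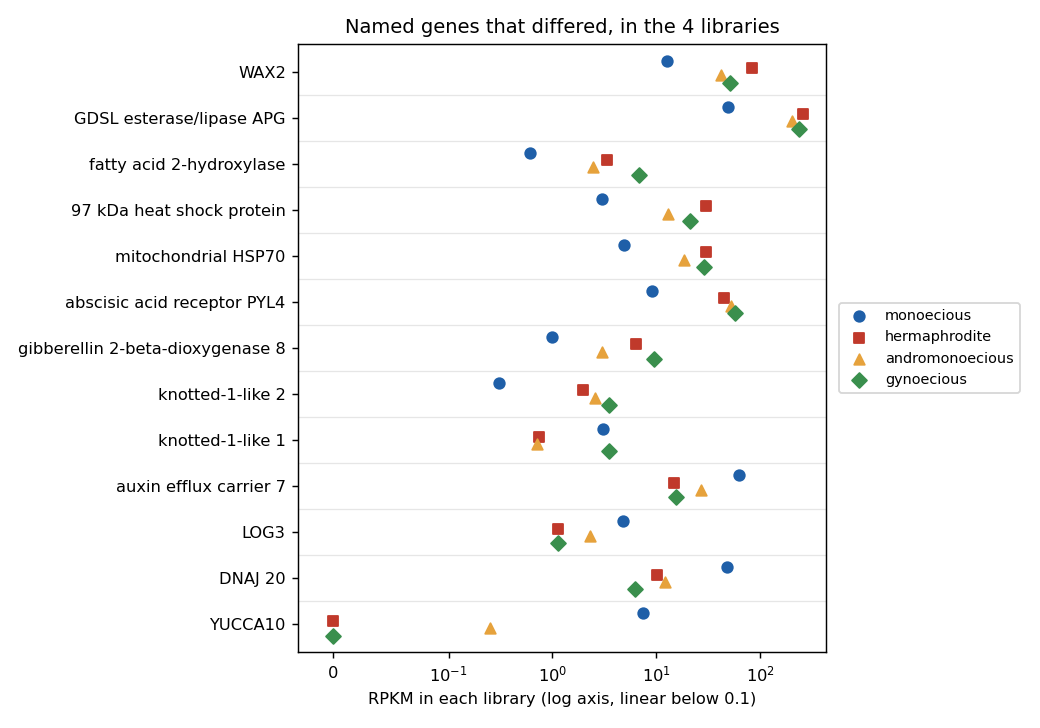
RPKM of 13 named genes in each of the 4 libraries, 1 symbol per library, on a log axis that is linear below 0.1. From WAX2 to knotted-1-like 2 the monoecious symbol is the lowest of the 4, and in the genes from auxin efflux carrier 7 down it is the highest.

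Among the named unigenes, the 12 ratios a direction farthest from 1 were ranked by the end of the interval nearest to 1. Most came from unigenes all but missing in 1 library, and not all of them are given here. Vacuolar protein sorting-associated protein 2 homolog 1, of the machinery that sorts membrane proteins for breakdown, had 0 monoecious, 253 hermaphrodite, 234 gynoecious and 261 andromonoecious reads, at least 75.3-fold higher against a floor of 3 reads, with an exact interval that starts at 60.8. Delta-cadinene synthase, a sesquiterpene enzyme, had 0, 105, 50 and 86 reads, at least 31.3-fold higher against that floor, with an interval from 25. Farnesyl pyrophosphate synthase 1, which supplies its substrate and was not among the 12, had 481, 3275, 4323 and 2218 reads, a ratio of 6.08 (5.52 to 6.71). Vinorine synthase, an acetyltransferase known from alkaloid synthesis in Rauvolfia, had 130, 1158, 539 and 613 reads, a ratio of 7.96 (6.63 to 9.61).

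On the lower side, the unigene of calcium-dependent protein kinase 8 had 233 monoecious reads and 0 in each of the other 3 libraries, at least 87.0-fold lower in the hermaphrodite library against the floor of 3 reads, with an interval from 70.2. A second unigene of that name, with 33 monoecious and 27 hermaphrodite reads, did not share the pattern. An extensin-like wall protein had 102, 0, 2 and 0 reads and the zinc finger protein DOF1.7 had 80, 2, 3 and 1. Cullin-4, the scaffold of a ubiquitin ligase, was missing from the hermaphrodite library alone, with 67, 0, 39 and 227 reads. A unigene named dihydroflavonol 4-reductase, an enzyme of anthocyanin synthesis, had 66, 0, 0 and 102 reads. Cytochrome b6, a subunit encoded in the chloroplast genome of plants, was not among the 12 on this side. It had 3567 monoecious, 805 hermaphrodite, 4141 gynoecious and 3459 andromonoecious reads, 4.96-fold lower (4.59 to 5.36). Here the hermaphrodite library stood apart from the other 3, which were run on the other flow cell.

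Some unigenes were detected in 1 of the 2 libraries only. With 50 or more reads in the other library, 66 unigenes had no hermaphrodite read and 18 had no monoecious read. Of the 66, 26 had no read in the gynoecious and andromonoecious libraries either, and 25 had reads in both. Of the 18, 16 had reads in both. Among unigenes with no usable name, Unigene65701 had 192 hermaphrodite reads, 1 andromonoecious read and none in the other 2 libraries, while Unigene3634 had 0 monoecious, 166 hermaphrodite, 167 gynoecious and 349 andromonoecious reads.

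A few unigenes were split in the same way as the genotype at a. Of 32444 unigenes with 50 reads or more in 1 library, 6 were below 2% of their highest library in both the hermaphrodite and andromonoecious libraries and in no other, and 2 were so in the monoecious and gynoecious libraries. Unigene44707 had 2264 monoecious, 0 hermaphrodite, 840 gynoecious and 0 andromonoecious reads. Unigene44708, the next in number and named Zinc finger CCCH domain-containing protein 49, had 2, 433, 0 and 583 reads, a ratio of 193 (53.2 to 1602). The 2 libraries with AA thus held one of these unigenes and the 2 libraries with aa the other. A neighbour within 2 numbers and 4-fold the opposite way was found for 4.88% of the 4-fold higher and 4.12% of the 4-fold lower unigenes. Over all counted, where only the neighbour had to pass 4-fold, the share was 4.81%. Unigene72225, with no usable name, had 756, 0, 1551 and 0 reads. Other pairings of the libraries also occurred, and 1 of them held more unigenes. There 29 were low in both the gynoecious and hermaphrodite libraries and 5 in both the monoecious and andromonoecious. With the genotypes of the locus tables this is the split by g. The remaining pairing, the split by g with the genotypes of the sample labels, held 6 and 2. Whether a genotype lay behind any of these splits was not tested.

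The other 2 libraries showed which of the pair stood apart. Of the 737 unigenes 4-fold higher in the hermaphrodite library, the gynoecious and andromonoecious levels were both nearer the hermaphrodite level for 408 (55.4%) and both nearer the monoecious level for 83 (11.3%). Of the 874 that were 4-fold lower, these numbers were 339 (38.8%) and 169 (19.3%). Over all unigenes counted the shares were 36.3% and 26.3%. The gynoecious level alone was nearer the hermaphrodite level for 291 (33.3%) of the lower unigenes, against 138 (18.7%) of the higher ones. Among the named lists, the other 2 libraries were both nearer the hermaphrodite library for 9 of 11 DNA replication unigenes, 8 of 12 fatty acid, wax and cutin unigenes, 2 of 15 receptor-like kinase unigenes and 0 of the 3 stamen and pollen unigenes. For 8 of the 15 receptor-like kinase unigenes both were nearer the monoecious library. Other lists varied too, with 8 of 12 MYB and bHLH, 5 of 12 heat shock and 0 of 4 photosynthesis unigenes nearer the hermaphrodite library. The authors listed the named unigenes for differences that involve the gynoecious or andromonoecious library. The shares over all unigenes are thus no background for these lists, and the share over the 827 named unigenes was not computed.

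**Figure D5:**
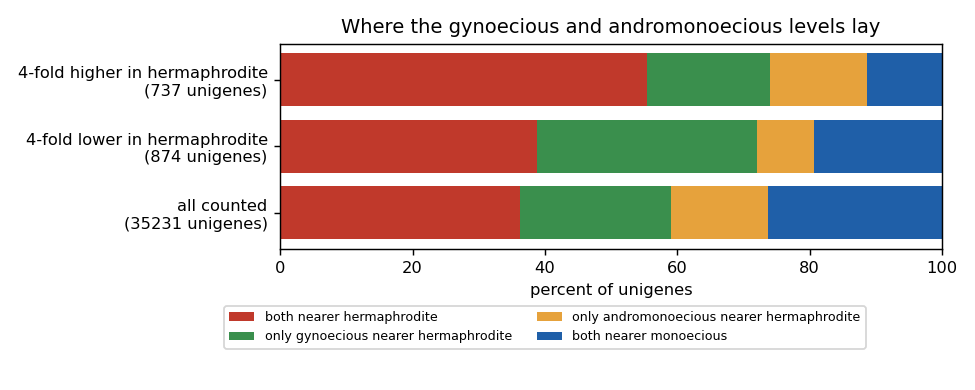
Share of unigenes, in percent, by whether the gynoecious and andromonoecious levels were nearer, on the log2 scale, to the hermaphrodite or the monoecious level. Bars are all 35231 unigenes counted and those at least 4-fold lower or higher in the hermaphrodite library; the red part, both nearer the hermaphrodite level, is widest in the 4-fold higher bar at 55.4%.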

How the data were processed

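RNA-seq of mixed leaf and flower bud tissue was run on an Illumina HiSeq instrument, per the labels, with 1 library a sex type. Assembler, aligner and genome build were not given in the sources used here. The authors deposited RPKM per unigene and library, and 4 gene tables with read counts, RPKM and lengths, whose headers give the library totals. Whole reads were recovered from the RPKM as those at the shortest unigene length, from 200 to 20000 nt, that made the reads of all 4 libraries whole. Of 1830 unigenes with the authors' counts and lengths, 1755 (95.9%) came out identical without their lengths, and the listed lengths were then used as lower limits. For some low unigenes the reads may be a fraction of the true number, which leaves the ratio and widens the interval. Ratios used edgeR's TMM factors over the 4 libraries (1.06 hermaphrodite, 0.971 monoecious). No count model was fitted, so no p-values were computed.

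Log2 ratios had a prior count of 1. Intervals are Clopper-Pearson. A fold against 0 reads is a bound against 3 reads in that library. Fewer than 50 reads in the pair were not counted. In the BLAST table of percent identity deposited by the authors, and in the 11140 of 11737 names that the per-library files take from it, the CDS column was set beside the wrong hits: for the 377 unigenes also named in the gene tables, the gene-table CDS number rose with the row without exception (Spearman rho of 1, across unigenes), while the CDS numbers beside the hits gave 0.018. Names planned from that table were therefore replaced by those of the gene tables, matched by 4 RPKM values (2774 of 2831 rows to 1 unigene), and 167 names were left out because the match was under 95% identity or 100 nt. Of the 377 with a readable match 210 (55.7%) passed, so many of the names with no readable match may be poor matches too. Members and lists were chosen with earlier results of these data known. Named genes were drawn from the 12 a direction whose interval lay farthest from 1, and from extremes and members of most reads in each list. Ethylene synthesis and MADS genes and a few others were added, the others not always marked as picked out. Strandedness of counting is not given, so antisense genes and paralogs cannot be told apart. The 16 columns of per-library values in the locus tables were not used. Alternatives covered scaling, read minimum, prior count, log2(RPKM + 1) and names. The code was tested on simulated data. Tools were Python 3.11.15, scipy 1.17.1, R 4.3.3, edgeR 4.0.16 and DESeq2 1.42.0, the last for its size factors alone.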

Additional observations from a re-analysis of the deposited data

How the results depend on the processing

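The counts of 2-fold and 4-fold unigenes followed the minimum of reads. With no minimum, 6712 unigenes were at least 4-fold higher and 5579 lower in the hermaphrodite library, and 16117 and 14459 passed 2-fold. With at least 10 reads the counts were 3605, 3548, 10327 and 10276, and with at least 200 reads 222, 231, 1866 and 1530. On log2(RPKM + 1), which shrinks low levels, 260 were 4-fold higher, 310 were 4-fold lower, 3446 were 2-fold higher and 2238 were 2-fold lower. The higher ones were then 60.6% of the 2-fold unigenes, against 50.6% in the main setting. Deposited RPKM scaling, DESeq2 size factors and a prior count of 5 kept all 4 counts within 1.5 times. The deposited RPKM scaling moved the median of the jasmonate list to 0.94 and of the stamen list to 0.35. A minimum of 10 reads moved list medians to -0.22 for ethylene, 0.15 for auxin, 1.20 for jasmonate, 0.64 for homeobox and meristem, and 1.03 for heat shock. Names of any match gave 0.25 for ethylene and 0.58 for jasmonate. With names whose match was readable and good, 1 or 2 unigenes a list were left, at -0.88 for ethylene, -1.04 for auxin, 2.83 for DNA replication, -0.84 for fatty acid, wax and cutin, and 3.37 for heat shock. The misplaced names of the per-library files put other unigenes in the lists. With any match, well matched or at least 95% identical, their medians were -0.55, -0.55 and -0.55 for gibberellin, 0.10, 0.20 and -0.11 for jasmonate, 0.12, -0.27 and 0.059 for stamen and pollen, 0.17, 0.20 and 0.21 for DNA replication, -0.12, -0.18 and -0.19 for fatty acid, wax and cutin, -0.075, -0.045 and -0.073 for heat shock, and -0.046, -0.053 and 0.016 for auxin. Ethylene stood at -0.25 well matched and -0.20 at 95% identity, and floral MADS at 0.13 well matched. Among the 24 leading named genes, 10 values moved beyond their counting interval, each under a prior count of 5 and each with 0 reads on one side, and none changed sign. No paired analysis was possible because each sex type had 1 library. The alternatives on gene-table names (any match, readable match) were chosen after seeing the data. Depth limits the lists too, since unigenes below 50 reads were not counted.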

Other observations

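Receptor-like kinases and enzymes of the cell wall add to the genes above. The receptor-like kinase list had 15 unigenes counted of 35 named, 6 past 2-fold upwards and 2 downwards in the hermaphrodite library, beside 26.1% and 19.1% of all named unigenes, with a median log2 ratio of 0.75. FERONIA, a receptor kinase that in Arabidopsis guides pollen tube reception and cell growth, was represented by 2 unigenes. They had 408 and 150 monoecious reads against 1046 and 402 hermaphrodite reads, ratios of 2.28 (2.04 to 2.57) and 2.39 (1.97 to 2.90). Of the 7 counted unigenes of the expansin, xyloglucan and cellulose list, 2 were at least 2-fold higher and 3 lower, with a median of -0.53. The xyloglucan galactosyltransferase KATAMARI1 had 62 monoecious, 341 hermaphrodite, 298 gynoecious and 189 andromonoecious reads, a ratio of 4.91 (3.74 to 6.55). Endoglucanase 16 had 198, 46, 10 and 56 reads, 4.82-fold lower (3.48 to 6.80).

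Among the named unigenes with most reads, poly(A)-binding protein C-terminal interacting protein 6 had 221604 monoecious, 117844 hermaphrodite, 46713 gynoecious and 110705 andromonoecious reads. Pyruvate decarboxylase isozyme 2, of fermentation, had 4249, 14552, 1654 and 6388 reads, so that it was highest in the hermaphrodite library.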
